A study of Mus musculus with 4 samples.

Results

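Long non-coding RNA (lncRNA) genes were examined through the accessible chromatin at their start sites. A promoter region of a lncRNA was a merged autosomal ATAC-seq peak lying within 1 kb of an annotated lncRNA transcription start site (TSS) and more than 1 kb from every protein-coding TSS, on genome build GRCm38 with the GENCODE M21 annotation. Peaks with a pileup of at least 0.25 per 1000000 tags in any of the 4 libraries were merged, which gave 93336 regions, and 2089 of these met the rule. The 2089 regions lay at 1484 of the 9426 autosomal lncRNA genes of the annotation, and 449 genes had more than 1 such region. For comparison, 24412 regions lay within 1 kb of a protein-coding TSS, and 66835 regions, called distal here, lay more than 1 kb from both kinds of TSS. The rule used position and a minimum height but no comparison between genotypes. Its farthest lncRNA promoter region lay 1000 bp from a TSS and the nearest one left out lay 1001 bp away. The weakest region entered with a top pileup of 0.254 per 1000000 tags, against 0.245 for the highest peak below the threshold.

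The libraries were made from microglia, sorted by flow cytometry from the brains of untreated C57BL/6 mice aged 3 months. Of the 4 libraries, 2 were labelled WT (wild type) and 2 IRF8KO, a genotype lacking the transcription factor IRF8, and no other allele or agent was named for either group. How the IRF8 deletion was made, and whether the replicates came from separate animals, is not given in the sources used here, so that p-values measure the spread between these libraries, which may be technical. The question the design puts is how chromatin accessibility of microglia depends on IRF8.

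LncRNAs are transcripts that do not encode protein, and many of their promoters lie in, or next to, enhancers, so that their accessibility often varies between cell types more than that of protein-coding promoters. IRF8 is an interferon regulatory factor required for the macrophage and microglial gene programme. It binds DNA weakly alone, and with the ETS factor PU.1 it binds a composite element in which an ETS core and an IRF core lie next to each other. AP-1 and C/EBP proteins are other factors of the macrophage lineage and of its activation.

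WT libraries held 46948938 and 48896408 tags and IRF8KO libraries 78793572 and 66224648 tags. Levels of regions are given below as scaled pileups, and levels of cell type markers as pileups per 1000000 tags without the library factor. The pileup is the authors' own value for a peak, the depth of extended cut sites at its summit, and a region took the highest pileup of any deposited peak overlapping it, per 1000000 tags. It was then multiplied by 1 factor per library, which equalised the medians over the 55504 regions with a peak in all 4 libraries. Setting pileups across lists in this way assumes that they grow with tag number. Before the factor, the IRF8KO libraries stood lower by a median of 0.32 on the log2 scale (a shift of -0.32), and IRF8KO replicate 1 stood lowest. Microglial marker promoters carried a peak for 13 of 13 genes in both WT libraries and 12 of 13 in both IRF8KO libraries, where Sall1, a transcription factor of microglial identity, had none. Their summed pileup per 1000000 tags was 41.9 and 31.3 in WT against 19.96 and 29.2 in IRF8KO, and P2ry12, a purine receptor of resting microglia, had 3.73 and 2.37 against 0.749 and 1.39. Endothelial marker promoters had a summed pileup per 1000000 tags of 8.12 and 6.63 for the WT libraries and of 1.81 and 2.30 for IRF8KO. Cdh5 alone gave 5.86, 4.81, 0.647 and 0.936 of these, and Cldn5 had no peak in 3 libraries. Summed levels of border macrophage and monocyte markers were 0.341 and 0.286 in WT and 1.09 and 2.23 in IRF8KO, all from Mrc1 and Cd163, with Lyve1, Ccr2 and Ly6c2 at 0 in every library. Oligodendrocyte markers summed to 2.41 and 2.35 in WT and to 0.495 and 0.982 in IRF8KO, with Mag and Sox10 at 0 throughout. Among B and T cell markers, Cd3d had a pileup of 0.873 and 1.08 in WT against 3.44 in both IRF8KO libraries, while Cd79a, Ms4a1, Cd3e, Cd4 and Cd8a were at 0 in every library. The part of such cells in the differences below was not tested, and in bulk libraries fewer cells of a type and less accessibility per cell cannot be told apart.

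The sequences below come from lncRNA promoter regions described further on. They are shown because each holds, within 100 bp of its summit, at least 1 of 2 motifs described below. Gm11840, a WT-only region, holds both, and its AP-1 site is left in lower case. They were read from the RefSeq GRCm38 genome, plus strand, with 30 bases on each side of the motif. Capitals in the first set mark the ETS-IRF composite motif, GGAA, any 2 bases, then GAAA, or its reverse complement. The first 4 regions had a peak in WT only, and the next 3 were lower in IRF8KO.
AU022793, chr15:39962530-39962599: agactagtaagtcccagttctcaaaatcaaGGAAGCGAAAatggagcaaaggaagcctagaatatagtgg
Gm45096, chr7:35066134-35066203: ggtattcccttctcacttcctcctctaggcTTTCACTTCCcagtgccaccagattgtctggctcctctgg
Gm11840, chr4:12008275-12008344: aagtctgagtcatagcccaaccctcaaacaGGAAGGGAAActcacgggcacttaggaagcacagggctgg
Gm35733, chr13:47362449-47362518: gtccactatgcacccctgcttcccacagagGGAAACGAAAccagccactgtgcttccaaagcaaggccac
Gm43351, chr3:130873909-130873978: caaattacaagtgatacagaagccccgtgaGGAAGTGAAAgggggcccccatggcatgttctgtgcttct
Gm30411, chr13:106760335-106760404: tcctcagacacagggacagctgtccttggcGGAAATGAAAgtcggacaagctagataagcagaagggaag
Gm34466, chr13:45266882-45266951: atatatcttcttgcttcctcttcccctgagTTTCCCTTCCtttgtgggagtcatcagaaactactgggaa
The motif centre lay 2.5 to 52.5 bp from the summit in these 7 regions. It lay 84.5 bp upstream of the TSS in AU022793 and 129.5 bp upstream in Gm43351, and 564.5 to 1209.5 bp downstream in the others.

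Capitals in the second set mark the AP-1 motif, TGACTCA or TGAGTCA, which is the same site read on the other strand. The first 2 regions had a peak in IRF8KO only, and the next 2 were higher in IRF8KO. The last 3, also called higher, belong to genes with known roles in macrophages or inflammation. In both sets the stretches were chosen by motif and direction together, so that their match is not a result. Some regions with AP-1 are not shown, such as F830208F22Rik, which was IRF8KO-only, and the intronic region of Mir142hg, which was not called.
AU019990, chr2:132599348-132599414: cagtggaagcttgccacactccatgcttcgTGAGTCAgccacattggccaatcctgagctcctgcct
AC162612.1, chr19:21104724-21104790: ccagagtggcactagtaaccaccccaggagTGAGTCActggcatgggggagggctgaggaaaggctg
9930111H07Rik, chr1:85775221-85775287: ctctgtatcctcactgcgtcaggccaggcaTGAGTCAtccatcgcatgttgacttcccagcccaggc
Gm5444, chr13:4771578-4771644: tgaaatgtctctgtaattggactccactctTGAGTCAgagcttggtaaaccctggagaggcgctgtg
Mirt1, chr19:53464900-53464966: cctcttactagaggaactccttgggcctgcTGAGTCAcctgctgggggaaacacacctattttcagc
Mir155hg, chr16:84703254-84703320: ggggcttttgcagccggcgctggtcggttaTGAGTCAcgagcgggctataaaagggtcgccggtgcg
Gm14005, chr2:128428660-128428726: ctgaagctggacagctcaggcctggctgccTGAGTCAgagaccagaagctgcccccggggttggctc
In 9930111H07Rik and Gm5444 the site lay 17 and 40 bp upstream of the TSS, and in Mir155hg 120 bp downstream of it. A match is a description of the letters and not evidence that a factor was bound.

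Most of the 2089 regions were small, and most did not contain the annotated start itself. Their median length was 283 bp, against 382 bp at protein-coding promoters and 253 bp at distal regions. The TSS lay inside the region in 724 cases (34.7%), within 500 bp of it in 1473, and outside it in 1365, so that "promoter" here means proximity to a TSS. Summits lay a median of 355 bp from the TSS, 56.8% of them upstream, and where the TSS was inside the region the median summit position was -32.5 bp. By biotype, 1204 regions belonged to intergenic lncRNAs, 540 to antisense transcripts, 282 to processed transcripts and 51 to sense intronic ones, and the bidirectional and sense overlapping classes gave 7 and 5. Summits lay outside all genes in 624 regions, in a lncRNA intron in 511, in a lncRNA exon in 486 and in a protein-coding intron in 355. A further 65 summits lay in untranslated or other exons of protein-coding genes and 48 in coding exons.

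In sequence, the lncRNA promoter regions stood between protein-coding promoters and distal regions. Regions with at least 50% GC and a CpG ratio (observed over expected) of at least 0.6 within 100 bp of the summit were called CpG-rich. They made up 364 of the 2089 (17.4%, 95% Wilson interval 15.9 to 19.1), against 52.0% of protein-coding promoter regions and 3.32% of distal regions. The SP motif CCCGCCC, typical of CpG-rich promoters, was found in 9.57% of lncRNA promoter regions, 26.8% of protein-coding ones and 3.03% of distal ones. ETS-IRF motifs occurred in 5.27% of lncRNA promoter regions, 3.00% of protein-coding ones, 6.26% of distal ones and 5.38% of all 93336 regions. For AP-1 the shares were 7.28%, 3.63%, 7.53% and 6.51%. Regions with the TSS inside were CpG-rich in 27.1% of cases, those with the TSS outside in 12.3%. All motif shares refer to the same 201 bp window on both strands.

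LncRNA promoter regions were less accessible than protein-coding promoter regions in every library. Over the 1317 with a peak in all 4 libraries, the median scaled pileup was 0.695 and 0.683 in WT and 0.714 and 0.683 in IRF8KO. Values of both genotypes overlapped, and the difference of the means, 0.00965, lay between the SD of the WT replicates, 0.00845, and that of the IRF8KO replicates, 0.0221 (exact two-sided permutation p = 1). Protein-coding promoter regions had medians of 1.22 and 1.23 in WT and of 1.23 and 1.14 in IRF8KO. The log2 ratio of the lncRNA to the protein-coding median was -0.79 ± 0.0444 (SD, n = 4 libraries), a ratio of 0.577, below 0 in 4 of 4 libraries, with an exact sign-flip permutation p of 0.13, the smallest that 4 libraries allow. Scaled by tag number alone, the difference of the means was -0.135 (exact permutation p = 0.667), and without IRF8KO replicate 1 it was -0.00597, so that its sign depends on the scaling and on that library. A peak of the minimum height was present at 80.9% and 70.8% of the 2089 regions in WT and at 55.6% and 72.2% in IRF8KO, and the genotypes overlapped. These shares are a description, since the same height chose the regions. IRF8KO replicate 1, the library with the lowest pileups, gave the lowest share.

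Peaks present in only 1 genotype were found in a small share of lncRNA promoter regions. A region was WT-only when both WT libraries had a peak of the minimum height and neither IRF8KO library listed a peak of any strength, and IRF8KO-only in the converse case. There were 108 WT-only regions, 5.17% of the 2089, beside 6.47% of all 93336 regions, 3.20% of protein-coding promoter regions and 7.71% of distal regions. There were 69 IRF8KO-only regions, 3.30%, beside 3.41% of all regions, 2.02% of protein-coding promoter regions and 3.93% of distal regions. When each pair held 1 library of each genotype in place of 2 of the same, the 4 such pairs gave 5, 15, 0 and 3 lncRNA promoter regions. No test over libraries was run for a single region, since 2 against 2 libraries cannot give an exact p below 0.33. Most regions of both kinds were weak: the lower of the 2 libraries had a median scaled pileup of 0.342 in the WT-only and 0.446 in the IRF8KO-only regions, and 11 and 7 regions reached 1 in both libraries. Of the WT-only regions 17, and of the IRF8KO-only regions 9, lay within 200 bp of a region with a peak in all 4 libraries. The WT-only count was 228 without WT replicate 2 and 183 without IRF8KO replicate 2, and the IRF8KO-only count was 154 without IRF8KO replicate 1.

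The strongest WT-only region lay over the TSS of AU022793, an intergenic lncRNA, at chr15:39962424-39962922. Its scaled pileup was 4.33 and 4.46 in the WT libraries, and neither IRF8KO library listed a peak there. The nearest protein-coding start, of the lipoprotein receptor relative Lrp12, lay 18.4 kb away, and its promoter was not called different by limma (log2 difference 0.18 ± 0.157 SE, adjusted p = 0.441). The next WT-only regions were at Gm44202 (1.41 and 1.47), Gm46189 (1.36 and 1.35), Gm12066 (1.39 and 1.35) and Gm45096 (1.55 and 1.31). They were followed by Gm11840 (1.30 and 1.91), Gm35733 (1.62 and 1.27) and 1700126G02Rik (1.27 and 1.25), so that AU022793 alone stood above 2. Gm12066 lies 57.8 kb from the start of Bcl11a, a transcription factor of blood and brain cells. The Bcl11a promoter itself was lower in IRF8KO, with 0.990 and 0.743 in WT and 0.321 and 0.375 in IRF8KO (log2 difference -1.31 ± 0.298 SE, limma adjusted p = 0.000564). The opposite was seen beside 1700126G02Rik, where the promoter of Etnk1, an ethanolamine kinase gene 53.1 kb away, was higher in IRF8KO, with 4.38 and 4.20 in WT against 6.25 and 5.53 (log2 difference 0.46 ± 0.154 SE, limma adjusted p = 0.0222). Gm45096 lies 9.45 kb from Cebpg, whose promoter gave a log2 difference of -0.14 (limma adjusted p = 0.537). The motif shown above was present in 4 of these 8 regions, those of AU022793, Gm45096, Gm11840 and Gm35733.

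The strongest IRF8KO-only region lay in AU019990, an intergenic lncRNA, at chr2:132599099-132599494. Its scaled pileup was 4.38 and 4.37 in IRF8KO with no listed peak in WT, and the summit lay 1151 bp downstream of the TSS in an intron. Gm19619 had 3.38 and 3.25, and AC162612.1 had 3.07 and 2.93 with its TSS inside the region. Gm34474 (1.61 and 2.08), F830208F22Rik (1.5 and 1.26), 1100001I12Rik (1.21 and 1.22), 4833413E03Rik (1.5 and 1.07) and Gm11175 (1.39 and 0.978) were weaker. Only AU019990, Gm19619 and AC162612.1 of these 8 stood above 2 in both IRF8KO libraries. F830208F22Rik lies 1.60 kb from the start of Pstpip2, an adaptor protein of macrophages, whose own promoter region was higher in IRF8KO (0.434 and 0.683 in WT, 0.911 and 0.897 in IRF8KO, log2 difference 0.73 ± 0.279 SE, limma adjusted p = 0.0456). Beside Gm19619 the direction was the opposite: the promoter of Btc, a growth factor gene 93.6 kb away, was lower in IRF8KO, with 1.37 and 2.07 in WT against 0.768 and 0.777 (log2 difference -1.13 ± 0.239 SE, limma adjusted p = 0.000225). Gm11175 lies in the coding exon of Jund, an AP-1 subunit, 1032 bp from the Jund TSS, just outside the limit of the rule. The AP-1 motif was present at AU019990, AC162612.1 and F830208F22Rik, and the CEBP motif TTGCNNAA at AU019990 and Gm19619.

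**Figure D1:**
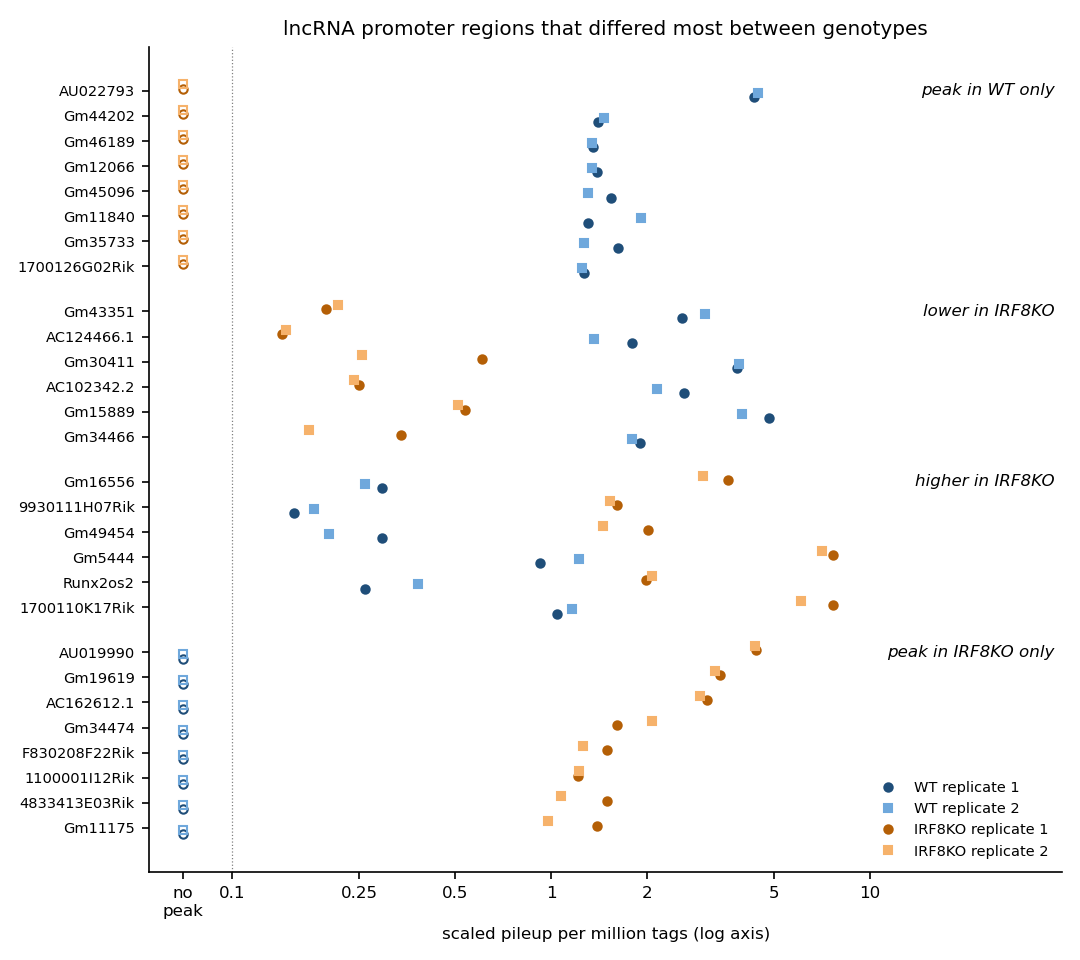
Scaled pileup per 1000000 tags (log axis) in each of the 4 libraries for the lncRNA promoter regions with the strongest peaks in 1 genotype only and with the largest called differences. Filled symbols are values, and open symbols at the left edge mark libraries with no listed peak; AU022793 and AU019990 stand above 4 in 1 genotype and have no peak in the other.

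Among the 1317 lncRNA promoter regions with a peak in all 4 libraries, 168 were lower and 192 higher in IRF8KO. Single regions were tested by limma on the log2 scaled pileup across all 55504 such regions, and called at a Benjamini-Hochberg adjusted p of 0.05 or less. The 168 lower regions were 12.8% of those fitted, beside 12.5% of all regions, and the 192 higher ones were 14.6%, beside 14.0% of all regions. Both shares were near those of all regions. Protein-coding promoter regions were called lower in 7.68% and higher in 7.31% of cases, and distal regions in 14.8% and 17.3%. The median difference over the 1317 regions was 0.02, beside 0.0046 over all regions, and the median size of the difference regardless of sign was 0.40, against 0.24 at protein-coding promoters and 0.48 at distal regions. Of the called regions, 112 of the lower and 105 of the higher ones differed by at least 1 on the log2 scale. Of the 330 fitted regions with the lowest mean pileup 14.2% were called, and of the other 3 sets of 329 regions each, ordered by pileup, 28.3% to 37.1%. Scaled by tag number alone, the calls were 103 lower and 30 higher, in place of 168 and 192, and the lower share of the calls was 77.4% in place of 46.7%. Without WT replicate 1 the calls were 53 and 68, and without WT replicate 2 they were 50 and 69.

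**Figure D2:**
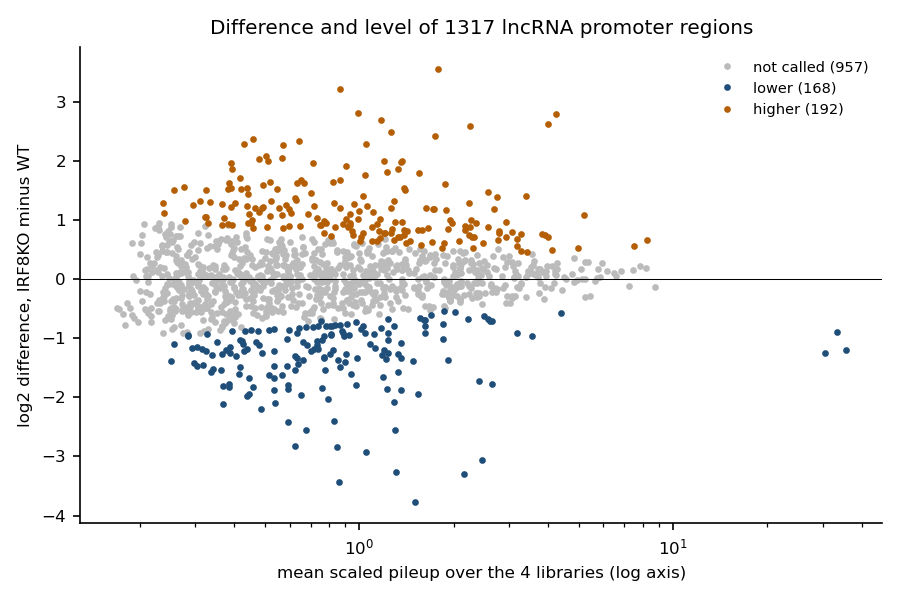
Log2 difference IRF8KO minus WT against the mean scaled pileup over the 4 libraries (log axis) for the 1317 lncRNA promoter regions fitted, 1 point per region. The 168 regions called lower and the 192 called higher reach from -3.77 to 3.56, and 3 regions at or beside a ribosomal RNA sequence stand far to the right.

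Among regions with a peak in all 4 libraries, the largest fall lay over the TSS of Gm43351, an intergenic lncRNA, at chr3:130873770-130874281. Its scaled pileup was 2.57 and 3.03 in WT and 0.196 and 0.214 in IRF8KO, a log2 difference of -3.77 ± 0.265 SE (limma adjusted p = 9.02e-16). No WT value came near an IRF8KO value, but the IRF8KO pileups before scaling were only 11 and 16. The lowest scaled pileups of the IRF8KO lists were 0.143 and 0.0938, so that the size of this fall rests on low values. At Gm30411, with an intronic summit, the values were 3.84 and 3.90 in WT and 0.607 and 0.254 in IRF8KO (log2 difference -3.30 ± 0.260 SE, limma adjusted p = 2.88e-14), so that the IRF8KO replicates differed from each other more than the WT replicates did. Gm15889, 9.04 kb from Herpud1, a gene of the stress response of the endoplasmic reticulum, had 4.81 and 3.96 in WT and 0.536 and 0.509 in IRF8KO (log2 difference -3.06 ± 0.214 SE). The Herpud1 promoter had 5.70 and 5.42 in WT and 5.68 and 5.57 in IRF8KO, a log2 difference of 0.02 (limma adjusted p = 0.956). The regions of AC124466.1 (1.79 and 1.37 against 0.143 and 0.147), AC102342.2 (2.61 and 2.15 against 0.25 and 0.241) and Gm34466 (1.89 and 1.79 against 0.339 and 0.174) fell by 3.43, 3.27 and 2.92 on the log2 scale. In all 6 regions the groups did not overlap, but the regions were chosen for the largest differences. The value of AC124466.1 in IRF8KO replicate 1 was the lowest that this list holds, 0.143, so that its difference rests on a value at the floor.

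Among regions with a peak in all 4 libraries, the largest rise lay 476 bp from the TSS of Gm16556, at chr6:122571325-122571667. Its scaled pileup was 0.295 and 0.261 in WT and 3.59 and 3.00 in IRF8KO, a log2 difference of 3.56 ± 0.247 SE (limma adjusted p = 5.68e-16). 9930111H07Rik rose from 0.156 and 0.181 to 1.61 and 1.53 (log2 difference 3.22 ± 0.300 SE), and Gm49454 from 0.295 and 0.201 to 2.02 and 1.46 (2.82 ± 0.288 SE). The WT values of 9930111H07Rik were near the lowest that the WT lists hold, 0.104 and 0.121. Gm5444 and 1700110K17Rik were already open in WT, at 0.921 and 1.23 and at 1.04 and 1.17, and reached 7.68 and 7.08 and 7.66 and 6.07 in IRF8KO (log2 differences 2.80 ± 0.184 and 2.63 ± 0.183 SE, limma adjusted p = 1.03e-16 and 6.64e-16). 1700110K17Rik is antisense within an intron of Gramd1b, a sterol transfer protein gene, whose promoter gave a log2 difference of -0.23 (limma adjusted p = 0.42). Runx2os2, antisense to Runx2, a RUNX transcription factor, had 0.261 and 0.382 in WT and 1.98 and 2.08 in IRF8KO (log2 difference 2.69 ± 0.266 SE). There the promoter of Runx2 itself rose too, from 0.521 and 0.643 to 1.48 and 1.37 (log2 difference 1.30 ± 0.251 SE, limma adjusted p = 5.7e-05). The calls and directions of these 12 regions were the same under all 10 alternatives run for them, scaling by tag number alone included. In the 4 of these that leave out a library, 1 genotype has a single library, which is assumed to vary like the others. The 12 regions were chosen for the largest differences and do not stand for the rest. Of all 360 called regions, 133 were called in the same direction with tag number alone.

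Most called regions with the ETS-IRF motif were lower in IRF8KO, and most called regions with the AP-1 motif were higher. The ETS-IRF motif was present in 110 lncRNA promoter regions, of which 61 had a peak in all 4 libraries. Their median scaled pileup was 1.09 and 1.21 in WT and 0.536 and 0.496 in IRF8KO, while the 1256 regions without it had 0.678 and 0.663 against 0.714 and 0.683. Of the 61, 35 were called lower and 4 higher, beside 883 lower and 200 higher of the 2241 such regions in the whole series (39.4% and 8.92%). A further 23 of the 110 were WT-only and 1 was IRF8KO-only, beside 1205 and 59 of the 5026 regions with the motif in the whole series. Seen from the other side, the motif was found in 21.3% of WT-only regions (interval 14.6 to 29.9) and 20.8% of lower ones (15.4 to 27.6), beside 19.95% of all WT-only and 12.7% of all lower regions of the series. Among regions not called it was found in 2.30% (1.52 to 3.46), among higher ones in 2.08% and among IRF8KO-only ones in 1.45%. All intervals here are 95% Wilson intervals over regions, which cover counting error only and not differences between mice. Without WT replicate 1 or without WT replicate 2, 14 of the 61 were called lower and 0 higher.

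The AP-1 motif was present in 152 lncRNA promoter regions, of which 105 were fitted, 39 being called higher and 7 lower. In the whole series 31.8% of the 3458 fitted regions with the motif were higher and 10.6% lower. The median scaled pileup of the 105 was 0.625 and 0.623 in WT and 0.839 and 0.871 in IRF8KO, with both IRF8KO values above both WT values. This order depends on the library factors: the median log2 difference was 0.34 with them and 0.02 with tag number alone. Of the other AP-1 regions, 14 were IRF8KO-only and 3 WT-only, beside 569 and 241 of the 6073 AP-1 regions of the series. The motif was found in 20.3% of IRF8KO-only regions (12.5 to 31.2) and 20.3% of higher ones (15.2 to 26.6), in 6.17% of those not called and in 4.17% of lower and 2.78% of WT-only ones. Over the series AP-1 was found in 17.9% of IRF8KO-only and 14.1% of higher regions. The CEBP motif was found in 18.8% of IRF8KO-only and 15.6% of higher regions, beside 8.99% of those not called, and over the series in 22.01% of IRF8KO-only and 16.9% of higher regions. Only 7 regions held both the ETS-IRF and the AP-1 motif, and most regions that differed held neither. Neither was found in 127 of the 168 lower, 149 of the 192 higher, 84 of the 108 WT-only and 54 of the 69 IRF8KO-only regions. Scaled by tag number alone, 9 of the 105 AP-1 regions were called higher and 4 lower, and 26 of the 61 ETS-IRF regions lower and 0 higher. Without WT replicate 1 the AP-1 calls were 12 higher and 0 lower, and without WT replicate 2 they were 14 and 3.

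The motif of CTCF, the insulator protein, was seen mostly in regions that were not called. It was found in 93 lncRNA promoter regions, and of the 81 fitted 76 were not called, 4 were lower and 1 was higher. In the whole series 2938 of the 3180 fitted regions with the motif were not called, 95 were lower and 147 higher. It was found in 7.94% of the regions not called (6.39 to 9.83), in 2.38% of the lower and 0.521% of the higher ones. In 108 WT-only and 69 IRF8KO-only regions there was no match, which allows shares of up to 3.43% and 5.27% by the Wilson interval. In the whole series the share among regions not called was 7.21%. PU.1 motifs (GAGGAAGT or GGGGAAGT), which can overlap an ETS-IRF motif, were found in 14.3% of lower, 16.1% of higher and 12.5% of not called regions, beside 21.8%, 18.3% and 13.4% over the series.

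**Figure D3:**
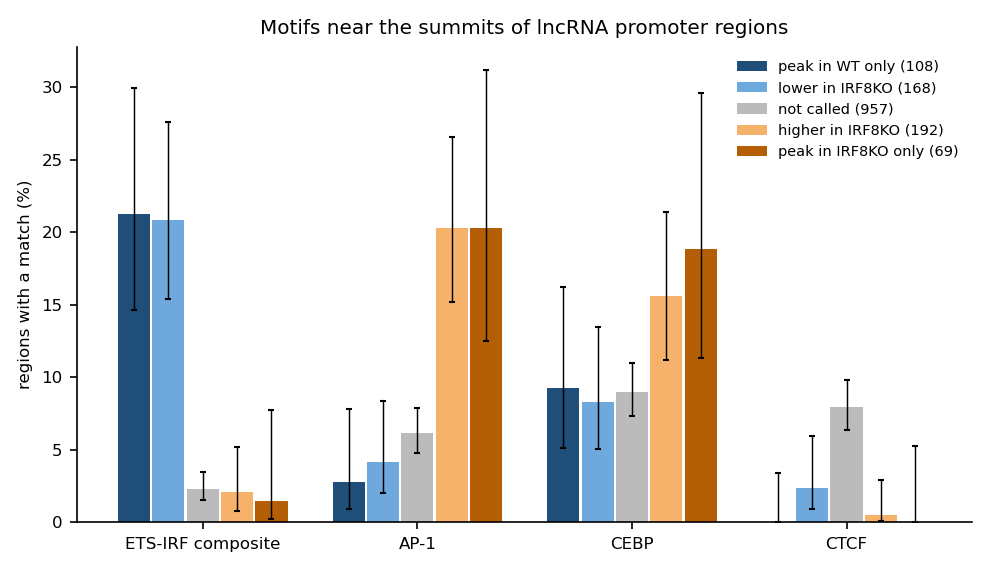
Percentage of lncRNA promoter regions with a motif match within 100 bp of the summit, by class of region (number of regions in parentheses); bars start at 0 and error bars are 95% Wilson intervals over regions. The ETS-IRF composite reaches 21.3% and 20.8% in the WT-only and lower classes, AP-1 20.3% in the higher and IRF8KO-only classes, and CTCF 7.94% in regions not called.

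A smaller share of CpG-rich than of CpG-poor lncRNA promoter regions was called. Of 287 CpG-rich regions fitted, 25 were lower and 11 higher (8.71% and 3.83%), and of 1030 CpG-poor regions 143 were lower and 181 higher (13.9% and 17.6%). At protein-coding promoters the corresponding shares were 5.49% and 3.66% for CpG-rich and 11.1% and 12.9% for CpG-poor regions. Among distal regions they were 9.59% and 9.16%, and 15.1% and 17.7%. The median size of the difference regardless of sign was 0.28 in CpG-rich and 0.46 in CpG-poor lncRNA promoter regions. CpG-rich regions were also the more accessible, with medians of 1.03 and 1.02 in WT and of 1.07 and 0.884 in IRF8KO, against 0.643, 0.623, 0.643 and 0.643. Scaled by tag number alone the calls were 10 lower and 0 higher among CpG-rich and 93 and 30 among CpG-poor regions. Without WT replicate 1 they were 5 and 1, and 48 and 67, and without WT replicate 2 they were 3 and 2, and 47 and 67. No test of the difference between the classes was run, since regions are not replicates.

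**Figure D4:**
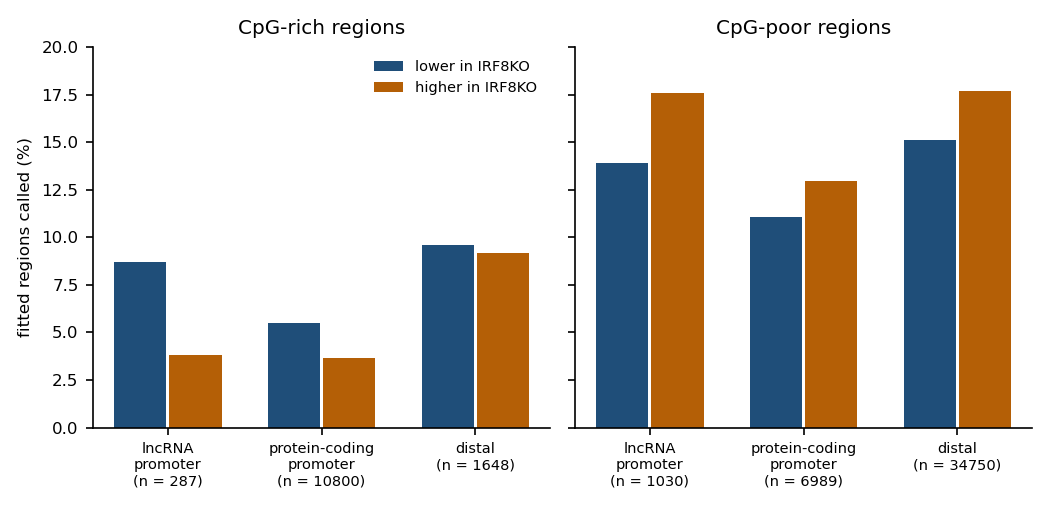
Percentage of fitted regions called lower or higher in IRF8KO by limma, for CpG-rich (left) and CpG-poor (right) regions of 3 kinds; bars start at 0 and n is the number of regions fitted. In lncRNA promoter regions 8.71% and 3.83% of CpG-rich and 13.9% and 17.6% of CpG-poor regions were called.

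The highest pileups of all lncRNA promoter regions came from 3 annotated lncRNAs next to each other on chromosome 17, Gm26917, Gm42418 and AY036118. This stretch carries ribosomal RNA sequence: RefSeq annotates the 18S-related pseudogene Rn18s-rs5 at chr17:39846354-39848202, which 3 lncRNA promoter regions overlap, those of Gm42418 and AY036118 among them, while that of Gm26917 lies beside it. Ribosomal RNA genes occur in many copies that the assembly does not hold, and whether reads from such copies add to these values was not tested. Gm42418 had 52.3 and 46.3 in WT and 25 and 18.3 in IRF8KO (log2 difference -1.20 ± 0.113 SE, limma adjusted p = 5.24e-12), and AY036118 had 48.1 and 37.7 against 20.6 and 15.5. Gm26917 had 46.1 and 40.6 against 26.9 and 20.1. Its call as lower (log2 difference -0.90) was lost with quantile normalization (log2 difference -0.11, limma adjusted p = 0.355), without WT replicate 1 (0.0857) and without WT replicate 2 (0.0526). Of the 3 regions next in mean pileup, those of 1700096K18Rik (9.17 and 9.12 in WT, 9.55 and 7.26 in IRF8KO) and 1810026B05Rik (7.44 and 7.83, 9.61 and 7.88) lay at the TSS and were not called. 1700096K18Rik was called lower with quantile normalization (log2 difference -0.33, limma adjusted p = 0.0201) and without IRF8KO replicate 1 (-0.33, 0.0159), and 1810026B05Rik was called higher without IRF8KO replicate 2 (0.33, 0.0215). Gm6410, the other of the 3, had 6.74 and 6.03 in WT and 11 and 9.38 in IRF8KO (log2 difference 0.67 ± 0.140 SE, limma adjusted p = 0.000176). Its call was lost when scaled by tag number alone (limma adjusted p = 0.644) and without WT replicate 1 (0.0751) or WT replicate 2 (0.141).

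Of 23 lncRNA names listed for macrophages and immunity, 20 were annotated and 11 had a promoter region, 35 regions in all. The regions of 5 other genes also lay near a protein-coding start and were not counted. Of the 22 regions fitted, 6 were higher and 2 lower in IRF8KO, and of the rest of the 35, 3 were WT-only and 2 IRF8KO-only. The shares over all regions were 14.0% higher and 12.5% lower of those fitted, and 6.47% WT-only and 3.41% IRF8KO-only. The median log2 difference of the 22 was 0.21, and -0.11 when scaled by tag number alone. Ptgs2os2, which lies near the prostaglandin synthase gene Ptgs2, rose from 3.53 and 3.15 in WT to 7.54 and 6.64 in IRF8KO (log2 difference 1.08 ± 0.156 SE, limma adjusted p = 2.61e-07). Another region of Ptgs2os2, upstream of its TSS, was WT-only with 0.243 and 0.522. The Ptgs2 promoter, 64.4 kb away, was higher too, with 0.417 and 0.522 in WT and 1.02 and 0.763 in IRF8KO (log2 difference 0.92 ± 0.284 SE, limma adjusted p = 0.0116). The region of Mir155hg, the host transcript of the inflammatory miRNA miR-155, that spans the bases before the TSS had 0.799 and 0.904 in WT and 1.45 and 1.23 in IRF8KO (log2 difference 0.65 ± 0.238 SE, limma adjusted p = 0.0359). Its second region, after the TSS, had 0.521 and 0.663 against 1.0 and 1.17 (0.88 ± 0.263 SE, limma adjusted p = 0.00906). Gm14005, also named Morrbid, a lncRNA of myeloid cell survival, had 2 of its 4 regions higher, with log2 differences of 1.10 ± 0.332 and 0.78 ± 0.268 SE (limma adjusted p = 0.0096 and 0.0251). Mirt1 rose from 0.938 and 1.10 to 1.71 and 1.63 (0.72 ± 0.223 SE, limma adjusted p = 0.0121). In each of the 6 regions called higher both IRF8KO values lay above both WT values, which adds little to the calls that chose them.

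Pvt1, a lncRNA beside Myc, fell from 0.869 and 1.45 to 0.625 and 0.589 at its TSS (log2 difference -0.89 ± 0.268 SE, limma adjusted p = 0.00967), where 1 WT library stood well above the other. A region in an exon of Lncpint, a lncRNA induced by p53, fell from 0.452 and 0.422 to 0.214 and 0.174 (log2 difference -1.18 ± 0.355 SE, limma adjusted p = 0.00959). Other regions of Lncpint went the other way: 1 was IRF8KO-only, with 0.732 and 0.67, and another had 0.911 and 0.817 in IRF8KO against 0.161 in 1 WT library and no listed peak in the other. The TSS region of Lncpint with the highest pileup had 2.59 and 3.09 against 2.62 and 2.28 and was not called, nor were the TSS regions of Mir142hg, the host of the blood cell miRNA miR-142 (2.28 and 2.77 against 2.54 and 2.29), and Dleu2, the host of miR-15a and miR-16-1 (3.18 and 2.87 against 2.96 and 2.49). Most of these calls were lost with 1 library left out, where the log2 differences often moved less than the p. At the first region of Mir155hg the log2 difference ranged from 0.54 to 0.77 with each library left out in turn, and limma adjusted p from 0.0286 to 0.262. Without WT replicate 1 the list had 1 lower and 1 higher region, and without WT replicate 2 it had 0 lower and 1 higher, Ptgs2os2 being the one that was called with each library left out. Without IRF8KO replicate 1 there were 2 lower and 4 higher. Scaled by tag number alone, 1 region was lower and 0 were higher, and Ptgs2os2 had a log2 difference of 0.77 with a limma adjusted p of 0.235.

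The other lists, of broadly expressed nuclear lncRNAs, snoRNA host genes, imprinted and neural lncRNAs, had 10, 7, 4 and 3 regions fitted, too few to set their counts against the 12.5% lower and 14.0% higher of all regions. Of 10 regions of nuclear lncRNAs fitted, 1 was higher, that of Trp53cor1, a p53-induced lncRNA 11.7 kb from Cdkn1a, with 1.37 and 1.77 in WT and 3.00 and 2.57 in IRF8KO (log2 difference 0.83 ± 0.198 SE, limma adjusted p = 0.000927). That call was lost without WT replicate 1 (limma adjusted p = 0.149) and when scaled by tag number alone (0.559). Malat1 had 8 regions, the most of any gene, and its highest one had 2.07 and 2.27 in WT and 2.0 and 1.43 in IRF8KO (log2 difference -0.36, limma adjusted p = 0.215; without IRF8KO replicate 1 it was -0.60 and 0.0315). Dancr had 5.70 and 5.69 in WT and 5.48 and 6.03 in IRF8KO and was not called. A region upstream of the Crnde TSS and a region in an exon of Malat1, 662 bp from an internal TSS, were IRF8KO-only. Among snoRNA hosts, whose introns carry the guide RNAs of ribosomal RNA modification, 7 regions were fitted and 0 were called by limma, with 0 at an unadjusted p under 0.05. Snhg8 was the strongest, with 6.45 and 6.53 in WT and 7.41 and 6.92 in IRF8KO. Of 4 imprinted regions fitted, 3 had an unadjusted p under 0.05 and the median log2 difference was 0.56, or 0.24 with tag number alone. All but the Kcnq1ot1 region (log2 difference 0.09) were neighbouring regions of Peg13 (0.50, 0.91 and 0.62), so that these values mostly describe 1 locus. After adjustment 1 was higher, a second region of Peg13 (0.712 and 0.362 in WT, 1.02 and 0.897 in IRF8KO, log2 difference 0.91 ± 0.290 SE, limma adjusted p = 0.0142). That call was lost without WT replicate 2 (limma adjusted p = 0.43), without IRF8KO replicate 1 (0.0607) and when scaled by tag number alone (0.559). Meg3, Rian, Mirg and H19 had no region. Of the neural and developmental genes, 7 had a region, and 0 of the 3 regions fitted were called by limma, with 0 at an unadjusted p under 0.05. The strongest of these 3 was that of Mir99ahg, with 0.678 and 0.623 in WT and 0.839 and 0.911 in IRF8KO.

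**Figure D5:**
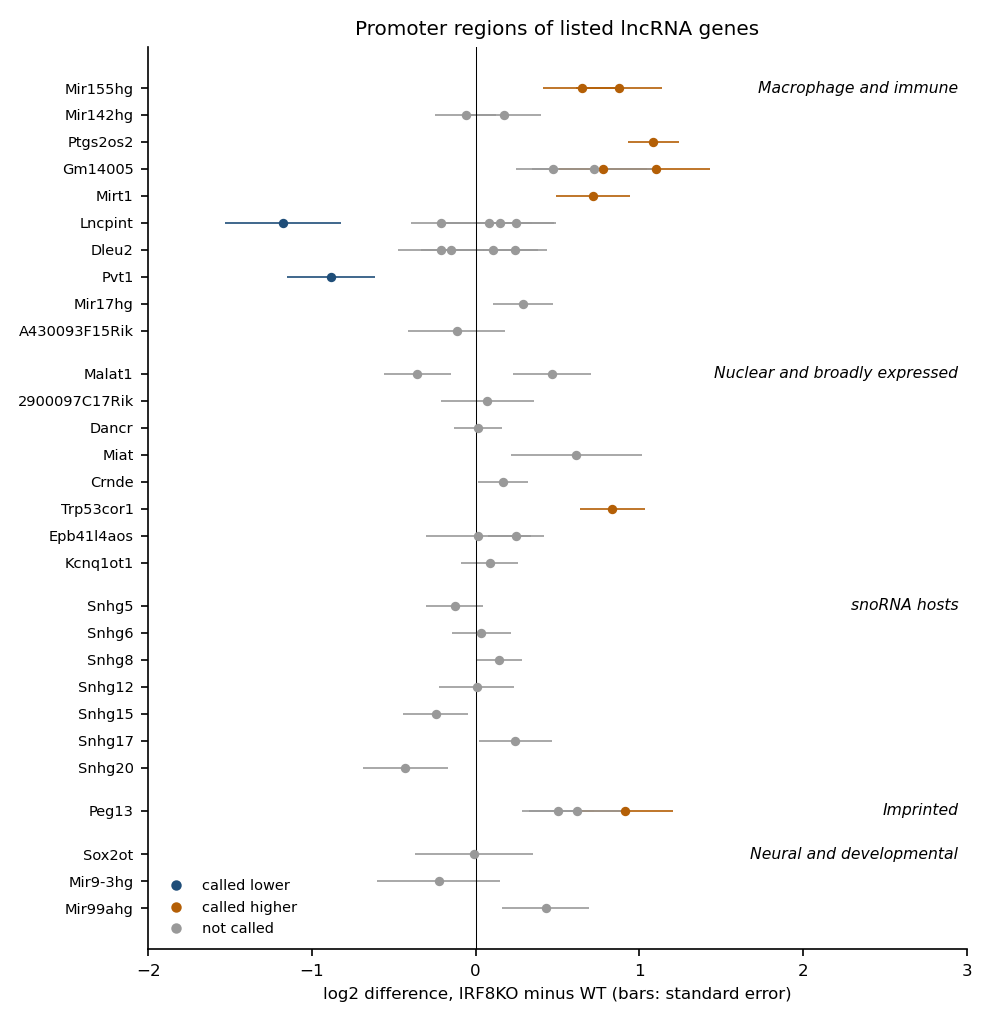
Log2 difference IRF8KO minus WT for each fitted promoter region of the listed lncRNA genes, 1 point per region with its standard error, several regions of a gene on 1 line. In the macrophage and immune list 6 points are called higher and 2 lower, and in the snoRNA host list none of 7 is called.

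The promoters of the protein-coding genes nearest to the lncRNA promoter regions were set beside all protein-coding promoter regions, of which 7.68% were lower and 7.31% higher. For each region the nearest protein-coding gene was taken, where its highest promoter region had a peak in all 4 libraries, each gene counted once. Beside the 168 lower regions there were 119 such genes, of which 9 promoters were lower (7.56%) and 6 higher (5.04%). Beside the 192 higher regions there were 131, of which 14 were higher (10.7%) and 4 lower (3.05%). Beside regions not called there were 573, with 6.28% lower and 7.33% higher. Beside WT-only regions 7 of 76 promoters were lower and 6 higher, and beside IRF8KO-only regions 3 of 54 were lower and 2 higher. The median log2 difference of the promoters beside lower, higher and not called regions was -0.01, 0.03 and -0.02. Within lncRNA genes, 23 had 2 or more called regions, and in 20 of them all called regions had the same direction; regions of 1 gene are close together and not independent members. Around the Irf8 gene itself (chr8:120736358-120756694), 23 lncRNA promoter regions lay within 10 Mb, and of the 15 fitted 2 were lower and 1 higher, with 3 of the 23 WT-only, counts too small to set apart from the shares of all regions (12.5%, 14.0% and 6.47%).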

How the data were processed

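ATAC-seq marks open chromatin by the cuts of a transposase. Per the submitters' processing notes, bcl2fastq, Bowtie2, MACS2 and deepTools were used with build mm10, the same assembly as GRCm38. Per the file headers, MACS2 2.1.1.20160309 called peaks in each library alone, without control reads and with a p cutoff of 0.01, with cut sites shifted by 37 bp and extended to 73 bp. The headers give a tag size of 50 bp for both WT libraries and 49 bp for both IRF8KO libraries. This difference cannot be told apart from genotype, and its part in the comparisons was not tested. The deposited pileup is a whole-number depth at the summit, not scaled for tag number. The deposited −log10 p and q values and the fold enrichment over a local background are relative to the same library. Pileups and, in an alternative, the −log10 q were used, and the fold was not. Build and annotation were checked: 0 peaks passed a chromosome end, and 38.3% to 40.2% of 90262 protein-coding TSSs lay in a peak, against 1.82% to 2.16% after a shift of 50000 bp.

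A lncRNA promoter region took the highest pileup of the peaks overlapping it by at least 1 bp, per 1000000 tags, with library factors of 0.816 and 0.982 (WT) and 1.41 and 0.887 (IRF8KO). A fit with limma 3.58.1 (R 4.3.3, log2 scale, no pseudocount, trended prior) covered all 55504 regions with a peak in all 4 libraries, took the spread largely from all regions together since each group holds 2 libraries, and adjusted p by Benjamini-Hochberg. On simulated data for this comparison it recovered 50% of 100 regions changed by 1 on the log2 scale and 96% of 100 changed by 2. There were 7 false calls among the unchanged rest of the 55504. The simulated spread was independent between libraries and followed the mean level, as the fit assumes, and few regions were changed. The false calls therefore do not measure how reliable the calls in the real data are. Values per library were compared by exact two-sided permutation tests. Searches covered 14 motifs in 201 bp around the summit. Python 3.11.15 with scipy 1.17.1 was used. Replicate numbers were shared by both groups in the labels, but deviations of same-numbered libraries were barely correlated (r = 0.0176 across 55504 regions), so no block was used.

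The regions, gene lists and tests were chosen with earlier results of these data known. Named regions were the 8 strongest WT-only and the 8 strongest IRF8KO-only, the 6 largest called differences in each direction, the 6 highest pileups, and regions of listed genes. Sex chromosomes were left out.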

Additional observations from a re-analysis of the deposited data

How the results depend on the processing

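With a minimum height of 0.5 there were 1278 lncRNA promoter regions in place of 2089, 31 WT-only and 19 IRF8KO-only. Counting any listed peak gave 167 and 118. Leaving out 1 library at a time gave 126 to 228 WT-only and 93 to 154 IRF8KO-only regions, 50 to 169 lower and 68 to 190 higher calls by limma, and a difference of median pileup of -0.00597 to 0.0253. That difference was -0.135 with scaling by tag number alone. Calls were then 103 lower and 30 higher, and over all regions 3904 and 1647. With missing values set to the lowest of each list they were 321 and 325, over 2089 regions in place of 1317. Of the 360 called regions, 133 were called in the same direction with tag number alone, 348 with quantile normalization, 120 without WT replicate 1, 119 without WT replicate 2, 298 without IRF8KO replicate 1 and 297 without IRF8KO replicate 2, and 0 had the opposite sign in any of these. A replicate block gave 174 lower and 201 higher calls and kept all 360. Beyond the construction of each alternative, the cause was not tested. Of the 26 named regions called, 36 of 258 comparisons with an alternative fell short of the threshold, 10 of them with tag number alone. Of the named regions not called, 7 comparisons passed it, 6 without 1 of the IRF8KO libraries and 1 with quantile normalization. A genotype left with 1 library is assumed to vary like the other. Low pileups limit the comparison, since a region without a listed peak has no value and may still hold reads below the calling threshold.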
